A study of Mus musculus with 10 samples.

Results

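The BMP response and antagonist genes described here are 9 genes chosen by name: the inhibitor-of-DNA-binding genes Id1, Id2, Id3 and Id4, the homeobox genes Msx1 and Msx2, the decoy receptor gene Bambi, and the inhibitory SMAD genes Smad6 and Smad7. All 9 were found by symbol, 1 row each, among 55401 genes of the table of counts. The choice used names and not measured values. All 9 passed the filter on low counts. The antagonists among them act at or inside the receiving cell, and the secreted antagonists are given with the rest of the pathway.

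Bone morphogenetic proteins (BMPs) are secreted ligands that bind paired serine/threonine kinase receptors. The receptors phosphorylate SMAD1, SMAD5 and SMAD9, which enter the nucleus with SMAD4 and change transcription. ID proteins, which lack a DNA-binding region and hold basic helix-loop-helix partners away from DNA, and the MSX homeodomain repressors are widely used readouts of this signal. Bambi, Smad6 and Smad7 are induced by the pathway in many cells and then dampen it: BAMBI resembles a receptor without a kinase, and SMAD6 and SMAD7 block receptors and the signalling SMADs. In limb ectoderm, BMP signals help form the apical ectodermal ridge, the distal rim that drives outgrowth, take part in ventral patterning and later take part in the regression of the ridge.

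The study measured RNA of mouse (Mus musculus) limb bud ectoderm, peeled from forelimb buds with forceps after trypsin. The comparison used here is at E9.75, counted in embryonic days. It sets 3 libraries labelled DKO (DKO 17, DKO 40 and DKO 41) against 3 from wild-type (WT) littermates (WT 32, WT 53 and WT 56). DKO is taken here as a double knockout of Sp8 and Sp6. Sp8 and Sp6 encode zinc finger transcription factors of limb ectoderm. About 2 forelimb buds went into each replicate, and the labels give neither the alleles, the strain nor which embryo or litter a library came from, so p-values measure only the spread between these libraries. The 4 samples at E10.5, labelled SP6KO or WT, were not analysed here. Totals ranged from 64432348 to 87040786 counts per library.

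As a check of the labels, WT libraries held 31.3 to 43.2 CPM of Sp8 and DKO libraries 2.38 to 5.86 CPM. CPM here are counts scaled to library size (counts-per-million values) and by TMM, a factor that corrects for differences in library composition. Sp6 was at 228 to 320 CPM in WT (312 in WT 53) and at 133, 13.9 and 76.9 CPM, respectively, in DKO 17, DKO 40 and DKO 41. The Sp6 groups did not overlap, DKO being lower, but the gene was not called (log2 fold change -1.94, SE 0.682, edgeR adjusted p = 0.207). Of its 3841 exon bases, 3329 are shared with Gm11532, which is transcribed the other way, and counts without strand cannot tell the pair apart. Gene totals do not show which part of Sp6 these counts came from. Epcam, a defining gene of epithelium, ranged from 569 to 635 CPM in WT libraries and from 384 to 439 CPM in DKO libraries.

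Of the 9 genes, 2 fell in DKO, 0 rose and 7 did not pass the test (edgeR quasi-likelihood test, Benjamini-Hochberg adjusted p under 0.05). Among all 19126 genes tested, 4.51% were called, 2.81% as lower and 1.7% as higher. The 2 genes that fell were Bambi and Smad6, both antagonists. Msx1 and Id3 had the highest positive log2 fold changes of the 9 and were not called, with adjusted p-values of 0.0678 and 0.0807. With DESeq2, a second count test, which called 8.3% of the genes it tested, both were called higher (adjusted p = 0.00471 and 0.00857). The 9 had a median log2 fold change of -0.05, beside 0.03 over all genes tested. An unadjusted p under 0.05 was reached by 4 of the 9, Bambi and Smad6 as lower and Msx1 and Id3 as higher. Over all 19126 genes tested, 1791 were lower and 1657 higher at that level, the background for each such count below. The groups did not overlap in 3 of the 9, against 21.9% of all genes tested: Bambi and Smad6 were lower in each DKO library than in each WT library (11.3% of genes tested), and Msx1 was higher (10.6%). For any gene named here, a lower level can mean less RNA per cell or fewer cells of a kind, and RNA pooled from a tissue cannot tell these apart.

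**Figure D1:**
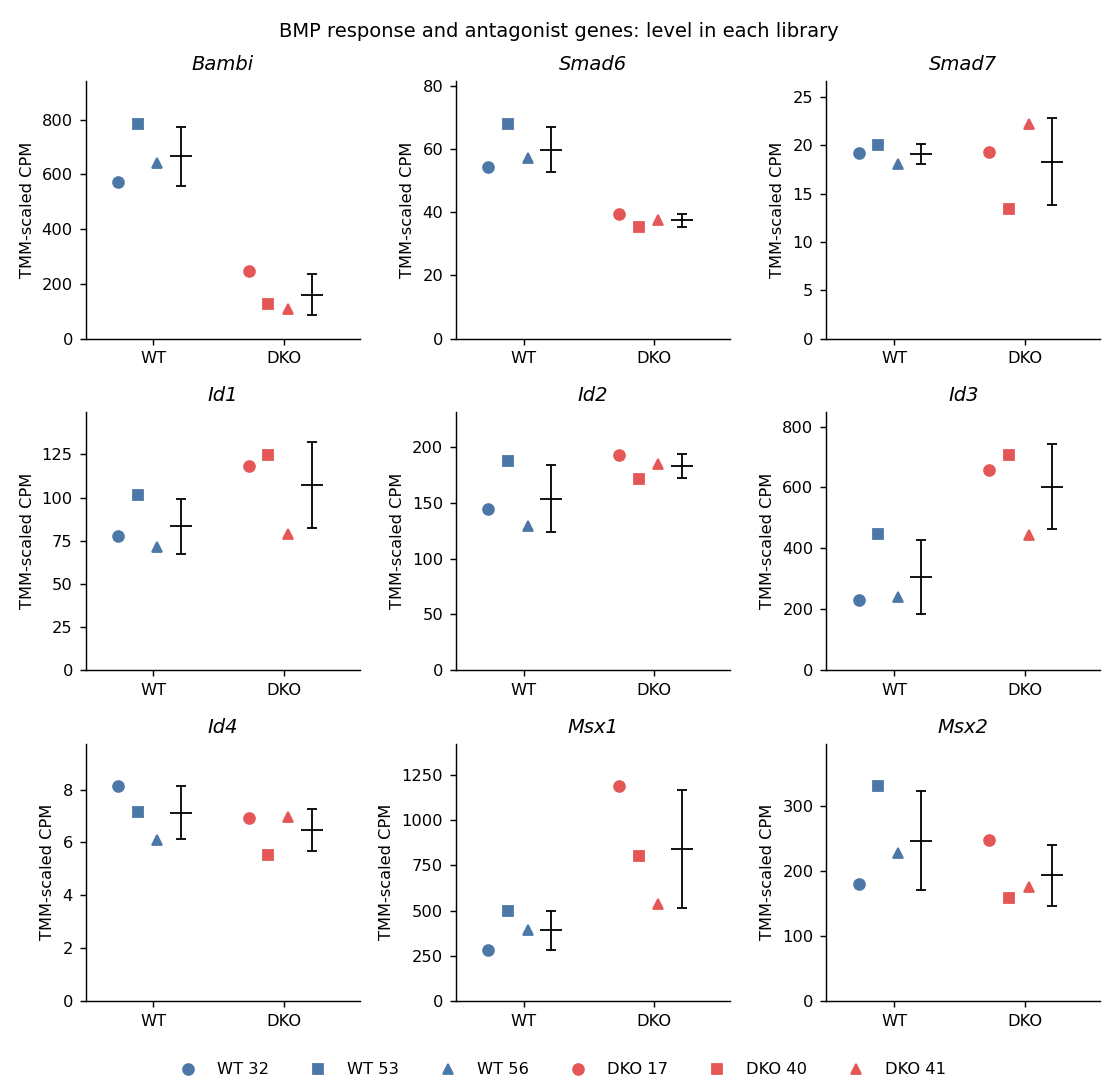
Level of each of the 9 genes in each library, in TMM-scaled CPM (vertical axis, from 0). Blue points are the 3 WT libraries, red points the 3 DKO libraries, and black bars the mean and SD of each group. The groups are apart for Bambi, Smad6 and Msx1 and overlap for the other genes.

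SP factors bind GC-rich promoter DNA. Start regions are shown for 3 genes: Smad6, which fell, and Msx1 and Id4, which were not called. Msx1 had the highest log2 fold change of the 9. The RefSeq table (GRCm38.p6) held a start region for 6 of the 9 genes (Id2, Id3, Id4, Msx1, Msx2 and Smad6). The sequences run 5′ to 3′ on the strand of the gene over the 250 bases before its RefSeq start. Capitals mark GC boxes, the motif GGGCGG of SP and KLF factors, read on both strands so that CCGCCC counts too.
Smad6, chr9:64022060-64022309, minus strand: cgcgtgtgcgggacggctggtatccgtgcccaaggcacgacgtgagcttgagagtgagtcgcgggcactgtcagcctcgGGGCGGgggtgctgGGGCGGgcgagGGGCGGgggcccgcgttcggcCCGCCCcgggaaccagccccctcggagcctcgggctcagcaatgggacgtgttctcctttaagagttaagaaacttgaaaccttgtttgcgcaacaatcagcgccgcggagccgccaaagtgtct
Msx1, chr5:37824586-37824835, minus strand: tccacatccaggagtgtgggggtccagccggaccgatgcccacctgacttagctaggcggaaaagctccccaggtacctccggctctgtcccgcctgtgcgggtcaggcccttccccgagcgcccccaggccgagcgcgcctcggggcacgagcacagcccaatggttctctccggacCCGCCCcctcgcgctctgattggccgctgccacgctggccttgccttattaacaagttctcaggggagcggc
Id4, chr13:48260866-48261115, plus strand: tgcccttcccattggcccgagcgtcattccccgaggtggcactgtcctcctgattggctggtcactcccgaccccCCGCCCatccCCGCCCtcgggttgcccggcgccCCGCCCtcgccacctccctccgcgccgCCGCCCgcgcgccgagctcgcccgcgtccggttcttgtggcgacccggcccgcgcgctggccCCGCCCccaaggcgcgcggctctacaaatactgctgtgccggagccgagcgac
Smad6 had 4 GC boxes, which began 171, 157, 146 and 125 bases before the start. Msx1 had 1, beginning at 72 bases, and Id4 had 5, between 175 and 53 bases. The other start regions held 2 overlapping GC boxes in Id3 and 1 each in Id2 and Msx2. Of these windows, only those of Smad6, Msx1 and Id4 held no base of a GENCODE exon. All 250 bases of the Id3 and Msx2 windows and 161 bases of the Id2 window lay in GENCODE exons, so for these genes the letters are in large part transcribed sequence in that annotation. The motif was in each of the 6 windows and in 32.7% of the 32851 regions of the same length in the table. The 6 windows were rich in G and C: Smad6 was 66.8% GC, above 85.8% of all regions, Msx1 68.0% and Id4 75.6%. The lowest of the 6, Msx2, was 61.6% GC, above 75.7% of all regions. Regions of like GC content were not compared, so the 32.7% is not a matched share. The GC-rich SMAD element GGCGCC was found in Id2 and Id4 (9.59% of all regions). The palindromic SMAD element GTCTAGAC (0.167% of all) and the TATA letters TATAAA (12.4%) were in 0 of the 6. A match is a description of letters, not a bound site.

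Bambi, the decoy receptor (ENSMUSG00000024232.2, GRCm38 chromosome 18, 3507923 to 3516404), was at 572, 784 and 643 CPM in WT 32, WT 53 and WT 56. In DKO 17, DKO 40 and DKO 41 it was at 248, 127 and 109 CPM. All DKO libraries were far below all WT libraries, and DKO 17 kept the most. On average it fell 4.13-fold, from 666 ± 108 to 161 ± 75.5 CPM (mean ± SD, n = 3 each, as for all means below), with a log2 fold change of -2.05 (SE 0.286; adjusted p = 0.00596 by edgeR). Bambi stayed called with each of the 6 libraries left out, at log2 fold changes from -2.50 (without DKO 17) to -1.84 (without DKO 41) and an adjusted p of at most 0.0448.

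Smad6, which favours inhibition of BMP over TGF-beta receptors (ENSMUSG00000036867.7, chromosome 9, 63953076 to 64022059), was at 54.3, 67.9 and 57.2 CPM in WT 32, WT 53 and WT 56. It was at 39.4, 35.3 and 37.6 CPM in DKO 17, DKO 40 and DKO 41. The DKO libraries lay close together and all below the WT libraries. Smad6 fell 1.60-fold, from 59.8 ± 7.13 to 37.4 ± 2.06 CPM (log2 fold change -0.67, SE 0.138, edgeR adjusted p = 0.0291). This call was lost whichever library was left out: the log2 fold change then lay between -0.76 and -0.58 and the adjusted p between 0.0503 and 0.138. Calls over all genes numbered 863 in the main fit and between 247 and 918 with 1 library left out.

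Smad7, the inhibitory SMAD that acts on both BMP and TGF-beta receptors (ENSMUSG00000025880.11, chromosome 18, 75367529 to 75395935), was at 19.2, 20.1 and 18.0 CPM in WT 32, WT 53 and WT 56. It was at 19.3, 13.4 and 22.2 CPM in DKO 17, DKO 40 and DKO 41. The DKO libraries spread to either side of the narrow WT range. By edgeR its log2 fold change of -0.05 (SE 0.209, adjusted p = 0.929) did not pass, and it turned to 0.12 without DKO 40. Within a library, the ratio of Smad6 to Smad7 was 2.82, 3.39 and 3.17 in WT 32, WT 53 and WT 56 and 2.04, 2.63 and 1.69 in DKO 17, DKO 40 and DKO 41. Each DKO ratio was below each WT ratio. Such a ratio does not depend on how libraries are scaled. The difference of the mean log2 ratio was -0.58 (exact permutation test, two-sided, p = 0.1, adjusted p = 0.1 over 4 ratios). With 3 libraries against 3, 0.1 is the smallest p this test can give, so no ratio described here can pass 0.05.

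**Figure D2:**
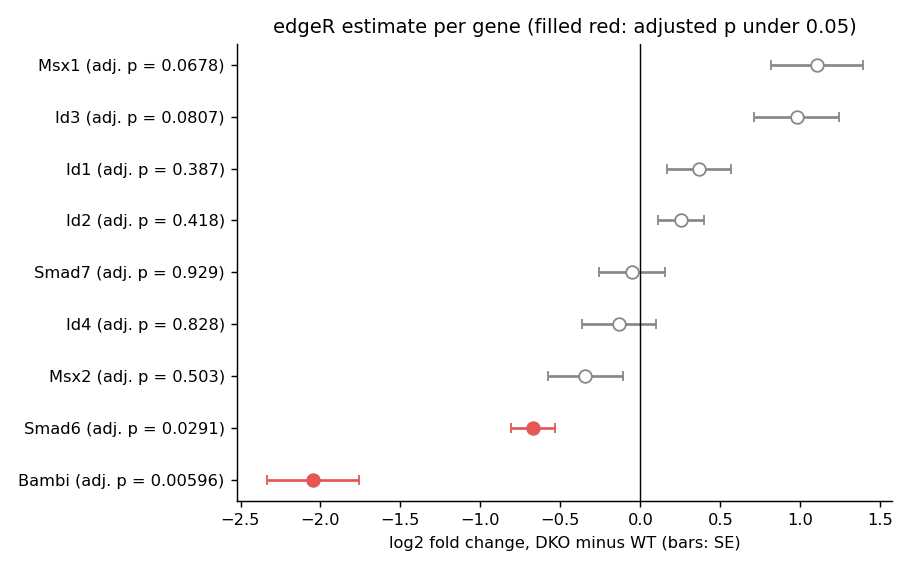
Log2 fold change of each of the 9 genes, DKO minus WT (horizontal axis), with its standard error as a bar and its adjusted p beside the name. Filled red points passed the threshold: Bambi at -2.05 and Smad6 at -0.67. Msx1 and Id3 lie at 1.10 and 0.98 with open symbols.

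The MSX genes are homeobox genes that repress transcription and are expressed in ridge and in distal mesenchyme. Msx1 (ENSMUSG00000048450.10, chromosome 5, 37820485 to 37824583) was at 282, 498 and 393 CPM in WT 32, WT 53 and WT 56 and at 1185, 799 and 536 CPM in DKO 17, DKO 40 and DKO 41. Each DKO library was above each WT library, by a small margin for DKO 41 against WT 53 and a wide one for DKO 17. The WT mean of 391 ± 108 CPM compares with 840.0 ± 326 CPM in DKO. The log2 fold change of 1.10 (SE 0.285) missed the threshold (edgeR adjusted p = 0.0678). It passed without DKO 41, at 1.34 (adjusted p = 0.0302), and was 0.77 without DKO 17 (adjusted p = 0.132).

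Msx2 (ENSMUSG00000021469.9, chromosome 13, 53466884 to 53473074), the MSX gene best known as a ridge marker, was at 180.4, 329 and 228 CPM in WT 32, WT 53 and WT 56. In DKO 17, DKO 40 and DKO 41 it was at 246, 159 and 175 CPM. The ranges overlap between 180.4 and 246 CPM, and the estimate of -0.34 on the log2 scale (SE 0.233) missed the threshold (edgeR adjusted p = 0.503). The ratio of Msx1 to Msx2 in CPM was 1.56, 1.51 and 1.72 in WT 32, WT 53 and WT 56, and 4.81, 5.03 and 3.07 in DKO 17, DKO 40 and DKO 41. WT libraries had nearly the same ratio although their Msx1 and Msx2 levels differed, and each DKO library was above them. The difference of the mean log2 ratio was 1.39 (exact permutation test, two-sided, p = 0.1, the smallest possible; adjusted p = 0.1), and between 1.26 and 1.62 with a single library left out.

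Among the ID genes, Id3 (ENSMUSG00000007872.3, chromosome 4, 136143497 to 136145755) was at 231, 447 and 241 CPM in WT 32, WT 53 and WT 56. It was at 657, 706 and 443 CPM in DKO 17, DKO 40 and DKO 41. WT 53 reached the level of DKO 41, while the other WT libraries were well below all DKO libraries. The means were 306 ± 122 and 602 ± 139.9 CPM (log2 fold change 0.98, SE 0.267, edgeR adjusted p = 0.0807). Without WT 53 the log2 fold change was 1.35 and passed (adjusted p = 0.0185), and without WT 32 it was 0.79 (adjusted p = 0.281).

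Id1 (ENSMUSG00000042745.9, chromosome 2, 152736251 to 152737410), a direct SMAD1 and SMAD5 target in many cells, was at 77.6, 101 and 71.1 CPM in WT 32, WT 53 and WT 56. It was at 119, 125 and 78.7 CPM in DKO 17, DKO 40 and DKO 41. DKO 41 lay inside the WT range and the other DKO libraries above it (log2 fold change 0.37, SE 0.200, edgeR adjusted p = 0.387). Id2 (ENSMUSG00000020644.9, chromosome 12, 25093799 to 25097140) was at 144, 187 and 129.6 CPM in WT and at 193, 171 and 185 CPM in DKO, in the same library order. WT 53 lay within the DKO range, and the log2 fold change of 0.25 (SE 0.147) missed the threshold (adjusted p = 0.418). Id4 (ENSMUSG00000021379.2, chromosome 13, 48261228 to 48266026) was at 8.12, 7.15 and 6.10 CPM in WT and 6.91, 5.54 and 6.95 CPM in DKO, with a log2 fold change of -0.13 (SE 0.233, adjusted p = 0.828). Exons of Id4 overlap those of unnamed genes on the opposite strand by 171 bases, and this chemistry does not mark strand. No exon of the other 8 genes overlaps another gene.

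The ratio of Id1 to Id3 was 0.180, 0.176 and 0.178 in DKO 17, DKO 40 and DKO 41, nearly the same number in each, although DKO 41 had less of both. In WT 32, WT 53 and WT 56 it was 0.336, 0.227 and 0.295, higher and more variable. The difference of the mean log2 ratio was -0.66 (exact permutation test, two-sided, p = 0.1, the smallest possible). For Id2 over Id4 the ratios were 17.8, 26.2 and 21.2 in WT and 27.9, 30.9 and 26.7 in DKO, with a difference of 0.40 (exact permutation test, p = 0.1).

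Per length of exon (RPKM, TMM-scaled CPM per kilobase of the union of exons), the order of levels in WT was Id3 (171 ± 68.1), Bambi (131 ± 21.2), Msx1 (126 ± 34.9), Msx2 (75.0 ± 23.2), Id1 (71.8 ± 13.8), Id2 (63.1 ± 12.3), Smad6 (18.7 ± 2.23), Smad7 (4.23 ± 0.224) and Id4 (1.85 ± 0.262). Each of the first 6 overlapped its neighbour in this order. Smad6, Smad7 and Id4 were each apart from the gene above. In DKO, Bambi stood below Id1, Id2 and Msx2, at 31.8 ± 14.9 RPKM, and overlapped Msx2. Id3 (336 ± 78.1) and Msx1 (271 ± 105) overlapped each other and stood above the rest in DKO.

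Within families the shares of summed RPKM differed too. Msx1 made up 62.3%, 61.6% and 64.6% of the MSX total in WT 32, WT 53 and WT 56, and 83.6%, 84.2% and 76.5% in DKO 17, DKO 40 and DKO 41. Id3 made up 50.1% to 60.04% of the ID total in WT and 62.9% to 68.8% in DKO. The ID total itself was 257, 416 and 251 RPKM in WT and 549.9, 573 and 393 in DKO, with WT 53 above DKO 41. Smad6 held 79.9% to 82.7% of the inhibitory SMAD total in WT and 70.5% to 78.8% in DKO. These shares restate the ratios above on a scale that allows for length.

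**Figure D3:**
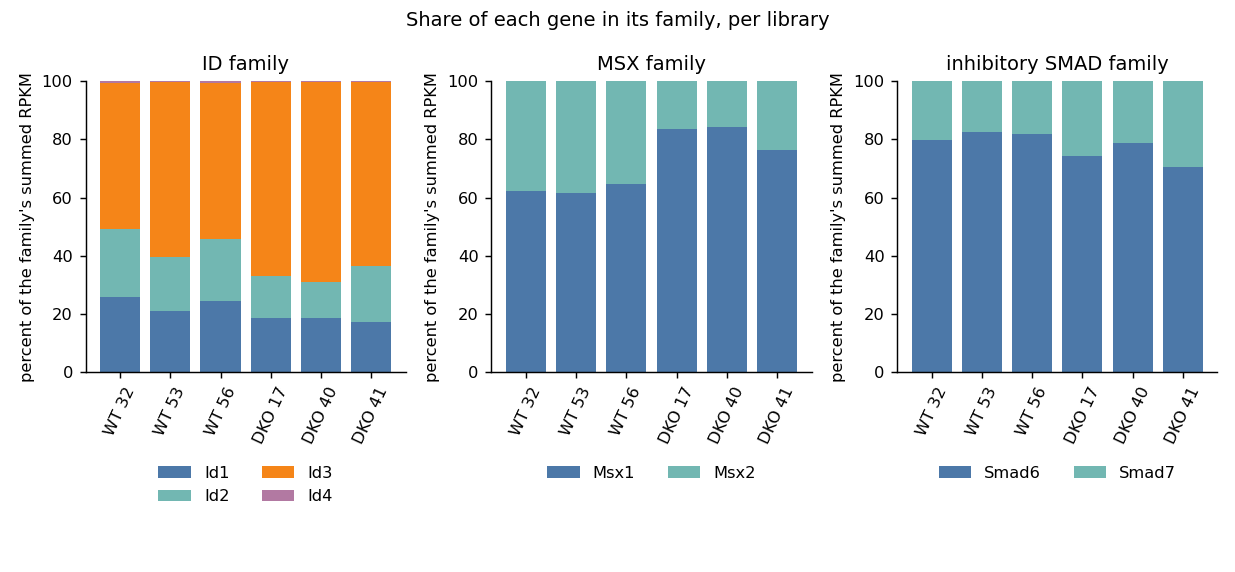
Percent of the summed RPKM of each family that each gene held, 1 bar per library, for the ID, MSX and inhibitory SMAD families. The Msx1 part of the MSX bars is 61.6% to 64.6% in WT and 76.5% to 84.2% in DKO.

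Libraries differed from each other in a way that many of these genes shared. WT 53 was the highest WT library for 8 of the 9 genes (all but Id4), while it was the highest for 38.1% of all genes tested and the lowest for 40.3%. DKO 17 was the highest DKO library for 5 of the 9 (Id2, Msx1, Msx2, Bambi and Smad6) and the lowest for 0, while it was the highest for 30.7% of all genes tested and the lowest for 37.5%. Genes with at least 1 count numbered 21716 in WT 53 and 22798 in DKO 17, against 23891 to 24651 in the others. WT 53 also had the smallest total, 64432348 counts, while DKO 17 had 85560785. Without both, Msx1 had a log2 fold change of 0.98 (edgeR adjusted p = 0.0669) and Bambi of -2.37 (adjusted p = 0.00104). Id3 then passed, at 1.28 (adjusted p = 0.0252), and Smad6 did not, at -0.62 (adjusted p = 0.0786).

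Other cell types express several of these genes, and their markers were measured beside them. Of 18 limb mesenchyme markers, 2 were lower, 2 higher and 14 not called by edgeR, with summed levels of 693 to 776 CPM in WT and 661 to 971 CPM in DKO. For this and the marker lists below, the edgeR shares over all genes tested were 2.81% lower and 1.7% higher. The groups did not overlap in 11.3% (DKO lower) and 10.6% (DKO higher) of all genes tested. Of the mesenchyme markers, DESeq2 called 3 lower and 5 higher. An unadjusted p under 0.05 was reached by 3 lower and 7 higher, and the groups did not overlap in 3 lower and 5 higher. Among those DESeq2 alone called higher, named after their values were seen, Prrx2 was at 49.4, 37.3 and 18.5 CPM in WT 32, WT 53 and WT 56 and at 83.0, 174 and 65.4 CPM in DKO 17, DKO 40 and DKO 41 (edgeR adjusted p = 0.0906). Twist2 was at 7.39, 2.31 and 0.549 CPM in WT and at 12.3, 67.1 and 26.1 CPM in DKO, in the same library order (edgeR adjusted p = 0.0780). Each DKO library was above each WT library for both genes. Those edgeR called lower, also named after their values were seen, were Pdgfra and Vim. Pdgfra averaged 66.6 ± 28.6 CPM in WT and 7.66 ± 4.41 CPM in DKO (edgeR adjusted p = 0.00696). Vim averaged 67.1 ± 12.7 and 28.6 ± 3.56 CPM (edgeR adjusted p = 0.00668). Col1a2, lower by DESeq2 alone, averaged 262 ± 56.4 and 145 ± 39.6 CPM. The markers edgeR called higher were Meis1 (means of 140 and 217 CPM) and Meis2 (80.5 and 166 CPM). Prrx1 was at 29.0 CPM in WT 32 and at 1.61 and 0.412 CPM in WT 53 and WT 56, and at 3.51, 23.3 and 12.8 CPM in DKO 17, DKO 40 and DKO 41. Twist1 was higher in each DKO library (20.4, 46.7 and 21.4 CPM) than in each WT library (14.8, 3.06 and 1.47 CPM) but was not called (edgeR adjusted p = 0.135), as was so for Msx1. The library with the most Msx1, DKO 17, had the least Prrx1, Twist1 and Twist2 of the DKO libraries, but more Prrx2 than DKO 41. WT 32 had the least Msx1 and the most Prrx1, Prrx2, Twist1 and Twist2 of the WT libraries. Other markers of the list were highest elsewhere in WT, Pdgfra in WT 56 (94.5 CPM) and Col1a2 in WT 53 (316 CPM). The part of mesenchyme in the Msx1 levels was not tested.

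Endothelium is a site of Id1, Id3 and Smad6. Of 14 endothelial markers, 8 were tested, 1 was higher (Sox17) and 0 lower by edgeR (2 higher by DESeq2, 3 at an unadjusted p under 0.05), and summed levels were 36.3 to 51.3 CPM in WT and 57.9 to 85.3 CPM in DKO. Most of each sum was Egfl7, at 32.9 to 47.3 CPM in WT and 50.2 to 74.0 CPM in DKO and not called by edgeR. Cdh5, which defines endothelium, had 0 counts in all 6 libraries, as did Robo4, and Pecam1 was at most 0.720 CPM. Markers of red blood cells summed to 0.116, 302 and 0 CPM in WT 32, WT 53 and WT 56 and to 27.1, 127 and 919.5 CPM in DKO 17, DKO 40 and DKO 41; 0 of the 8 tested were called by edgeR or DESeq2 (2 higher at an unadjusted p under 0.05). Hbb-y, an embryonic globin, was at 228 CPM in DKO 41. Macrophage markers summed to 3.43 CPM or less, with Csf1r at 0.594 CPM or less; 0 of 4 tested were called by edgeR or DESeq2, or reached an unadjusted p under 0.05. Neural crest markers summed to 63.4 to 99.4 CPM in WT and 66.2 to 149.8 CPM in DKO with 0 of 6 called by edgeR (1 higher by DESeq2 and 1 at an unadjusted p under 0.05), and Sox10 was at 0.767 to 4.26 CPM in WT and 3.21 to 12.5 CPM in DKO. Most of each neural crest sum was Erbb3 and Tfap2b. Muscle progenitor markers summed to 20.1 to 27.7 CPM in WT and 35.3 to 43.0 CPM in DKO, with 0 of 4 called by edgeR (1, Met, higher by DESeq2 and 1 at an unadjusted p under 0.05). Pax3 was at most 2.48 CPM and Pax7 at most 0.601 CPM, and Myod1 and Myf5 had 0 counts in DKO, so these genes made up little of the sums. Without WT 32 and DKO 41, the libraries with the most Prrx1 in WT and the most globin, Bambi stayed called (log2 fold change -1.96, edgeR adjusted p = 0.0301) and Smad6 did not (-0.77, adjusted p = 0.0984). The libraries kept still held such RNA: Prrx1 was at 23.3 CPM in DKO 40, and red blood cell markers summed to 302 CPM in WT 53. Leaving out these libraries therefore does not remove other cell types. Their part in the levels of the 9 genes was not tested.

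Ridge and ectoderm markers were measured too, and their counts stand beside the 2.81% lower and 1.7% higher among all genes tested by edgeR. Of 19 ridge markers, a list that contains Msx2, 12 were lower and 0 higher in DKO by edgeR (13 and 0 by DESeq2, 14 and 0 at an unadjusted p under 0.05), and their summed level was 3164 to 3870 CPM in WT against 706 to 1157 CPM in DKO. The list also holds Sp8 and Sp6, the genes targeted in DKO, and Sp8 is among the 12. So are Bmp4, Bmp7 and Dlx2, which are given again below with the pathway lists. Of 18 markers of embryonic ectoderm, 4 were lower and 2 higher by edgeR (8 and 2 by DESeq2, 12 and 2 at an unadjusted p under 0.05), with sums of 4600.2 to 5020.1 CPM in WT and 3106 to 4248 CPM in DKO. The part of these in the fall of Bambi and Smad6 was not tested.

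The rest of the BMP pathway gives the setting of these changes. Of 89 other genes in 7 lists, 78 were tested, 9 fell and 4 rose, against 2.81% and 1.7% of all genes. Without DKO 40 or WT 56, 3 were lower, and without WT 32 or WT 53, 4. The higher genes were 2 without WT 32 and 1 without WT 56. Calls over all genes were fewer in these fits too: 295 without DKO 40, 247 without WT 56, 313 without WT 32 and 534 without WT 53, against 863. Of 10 ligand genes tested, 3 fell and 0 rose, with a median log2 fold change of -0.68. Bmp4, the main ridge ligand, was at 215, 245 and 299 CPM in WT and at 67.3, 34.1 and 53.7 CPM in DKO, in the same library order as above (log2 fold change -2.29, SE 0.234, edgeR adjusted p = 0.00133). Its groups are far apart, and its exons overlap a predicted antisense gene by 89 bases. Bmp7 fell from 327 ± 28.1 to 196 ± 15.8 CPM (log2 fold change -0.74, adjusted p = 0.00918). Bmp8a fell from 4.01 ± 0.775 CPM to 0.888 CPM in DKO 17 and 0 counts in DKO 40 and DKO 41 (edgeR adjusted p = 0.0195), and DESeq2 did not call it (adjusted p = 0.478). The ligand genes DESeq2 called were Bmp4, Bmp7 and Bmp5, the last named after its value was seen, which averaged 5.57 ± 1.97 CPM in WT and 2.26 ± 0.274 CPM in DKO (edgeR adjusted p = 0.0775). Bmp2 did not pass, with 26.5 ± 7.50 CPM in the WT group and 17.3 ± 6.65 CPM in the DKO group (adjusted p = 0.317). With a single library left out, Bmp4 stayed called. Leaving out DKO 40 or WT 56 ended the call of Bmp7 (highest adjusted p 0.0639), and leaving out DKO 40 or a WT library ended that of Bmp8a (0.0886). Without DKO 17, Bmp8a was at least 222-fold lower (against a floor of 3 counts over the DKO libraries left), and without DKO 41 its log2 fold change was -3.11, in place of -3.73.

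**Figure D4:**
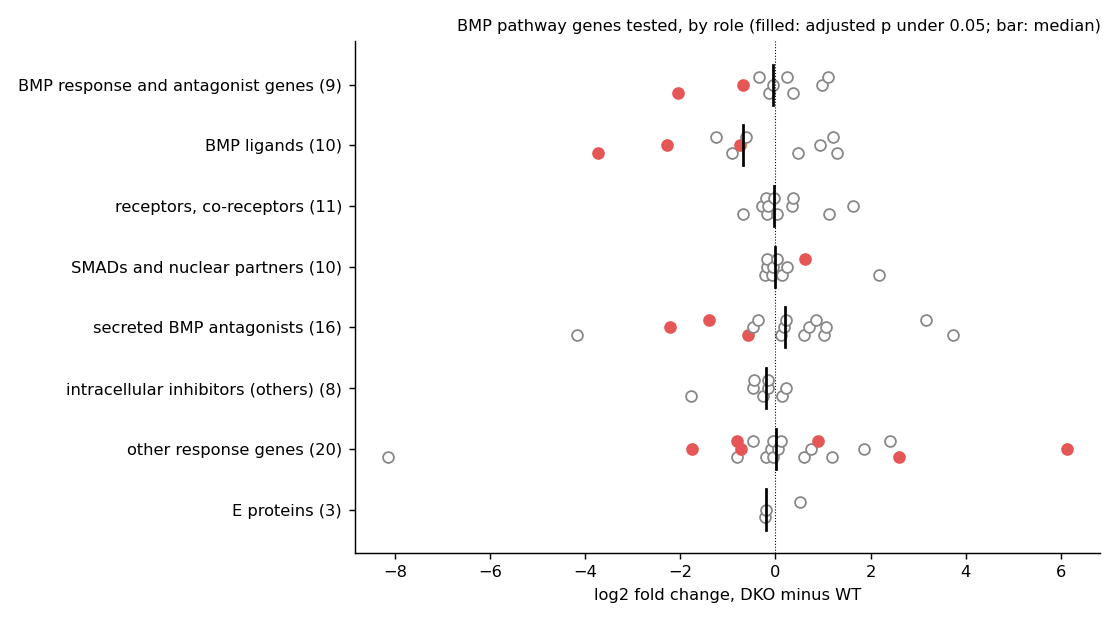
Log2 fold change, DKO minus WT (horizontal axis), of every tested gene of the BMP pathway lists, 1 row per role with the number of genes in brackets. Filled red points passed the threshold and bars are medians, which lie at -0.68 for ligands and -0.02 for receptors and co-receptors.

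The receptors and SMADs carry the signal from ligand to nucleus, and their counts stand beside the 4.51% called among all genes. Of 11 receptors and co-receptors tested, 0 were called by edgeR, with a median log2 fold change of -0.02. At an unadjusted p under 0.05, 1 was lower and 1 higher, and DESeq2 called 1 (Bmpr1b, higher, named after its value was seen). For the type I receptor gene Bmpr1a, WT libraries averaged 99.9 ± 12.4 CPM and DKO libraries 86.7 ± 11.4 CPM (adjusted p = 0.518). The signalling SMAD genes Smad1 (71.1 ± 8.16 and 67.4 ± 11.5 CPM), Smad5 (87.1 ± 11.3 and 83.9 ± 12.7 CPM) and Smad4 (194 ± 5.59 and 171 ± 29.1 CPM) were not called, with adjusted p-values of 0.849, 0.895 and 0.549. Of 10 SMADs and nuclear partners, only Yy1, a zinc finger factor that can bind SMADs, was called: it rose from 33.6 ± 3.80 to 52.0 ± 5.22 CPM (adjusted p = 0.0477), a call lost whichever library was left out. Of 8 other intracellular inhibitors, such as SMURF ubiquitin ligases, edgeR and DESeq2 both called 0, and 1 was lower at an unadjusted p under 0.05. Of the 3 E proteins that ID proteins bind, both tools called 0, and 1 was lower and 1 higher at an unadjusted p under 0.05.

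Among secreted antagonists, 16 of 22 were tested, with a median log2 fold change of 0.21. By edgeR 3 fell and 0 rose, against 2.81% and 1.7% of all genes tested. DESeq2 called 3 lower and 1 higher, and an unadjusted p under 0.05 was reached by 5 lower and 4 higher. The gene DESeq2 called higher was Sostdc1, named after its value was seen, with means of 36.8 ± 6.56 CPM in the WT group and 77.4 ± 39.3 CPM in the DKO group and overlapping libraries (edgeR adjusted p = 0.125). Sost, which encodes sclerostin, fell from 79.3, 72.9 and 61.7 CPM in WT 32, WT 53 and WT 56 to 13.8, 10.6 and 21.1 CPM in DKO 17, DKO 40 and DKO 41. This 4.71-fold fall (log2 fold change -2.22, SE 0.235, edgeR adjusted p = 0.0016) stayed called with any 1 library left out. Twsg1, which binds BMPs together with chordin, fell from 178 ± 16.99 to 120.1 ± 14.5 CPM (adjusted p = 0.0445). Fstl3, a follistatin relative, fell from 3.49 ± 0.438 to 1.31 ± 0.335 CPM (adjusted p = 0.0491), but 1157 bases of its exons overlap Prss57 on the other strand. The calls of Twsg1 and Fstl3 were lost whichever library was left out. What the falls of Sost, Twsg1 and Fstl3 mean for BMP signalling was not tested. Grem1, a mesenchymal antagonist, was at 10.4 CPM in WT 32 and under 1 CPM in the other libraries, and noggin (Nog) was at most 0.235 CPM and was not tested.

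Of 20 further genes known to respond to BMP, 3 rose and 3 fell by edgeR (4 and 4 by DESeq2, 6 and 6 at an unadjusted p under 0.05). The edgeR shares over all genes tested were 1.7% higher and 2.81% lower. The homeobox genes Dlx2 and Dlx3 fell, Dlx2 from 166 ± 24.8 to 49.5 ± 16.8 CPM (log2 fold change -1.74, adjusted p = 0.00425) and Dlx3 from 124.5 ± 10.7 to 70.8 ± 15.1 CPM (-0.81, adjusted p = 0.0263). Klf10, an early response gene of TGF-beta and BMP signals, fell from 36.9 ± 0.402 to 22.4 ± 1.98 CPM (-0.71, adjusted p = 0.0263). Tbx2, a T-box repressor, rose from 2.48 ± 1.01 to 14.8 ± 9.71 CPM (log2 fold change 2.59, adjusted p = 0.0312), with 25.9 CPM in DKO 40. Gata3 rose from 42.4 ± 3.54 to 79.3 ± 8.91 CPM (0.90, adjusted p = 0.00879); 232 bases of its exons overlap other genes. Hand1 rose to 7.18 ± 2.38 CPM in DKO from 0.278 CPM in WT 32 and 0 counts in the other WT libraries (adjusted p = 0.000772). The calls of Dlx2 and Hand1 held with any 1 library left out. Without WT 32, Hand1 was at least 361-fold higher (same floor, over the WT libraries left), and without WT 56 its log2 fold change was 5.46, in place of 6.12. That of Gata3 ended without WT 56 (adjusted p = 0.0561) and that of Tbx2 without DKO 40 or a WT library (highest adjusted p 0.156), with a log2 fold change of 1.93 without DKO 40. Dlx3 kept its call only without DKO 17 and Klf10 only without DKO 41 (0.121 at most for either).

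To find the genes most like each of the 9, log2 CPM were centred on their mean and the root mean square difference over the 6 libraries was taken, among 10054 protein-coding genes whose mean level reached 5 CPM. The gene closest to Bambi was the homeobox gene Meox1 (difference 0.0840), which averaged 67.4 CPM in WT libraries and 16.5 CPM in DKO libraries, followed by Dlx2 (0.244). For Msx1 these were Lin28a (0.147), which encodes an RNA-binding protein, and Dync1i1 (0.201), and for Id3 they were Wfdc2 (0.114) and Crb2 (0.169). Wfdc2 had means of 26.5 CPM in WT and 55.8 CPM in DKO. Smad6 was closest to Mogs (0.0929) and Gbe1 (0.0932), Id1 to Rpl34 (0.0364) and Snrpe (0.0508), and Id2 to Kbtbd6 (0.0621) and Bend4 (0.0631). Msx2 was closest to Jrk (0.0864), Id4 to Msl2 (0.0442) and Lin52 (0.0526), and Smad7 to Arfgap3 (0.0898) and Sec23a (0.0959). With 6 libraries in 2 groups, such likeness describes these libraries and says nothing of shared control.

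**Figure D5:**
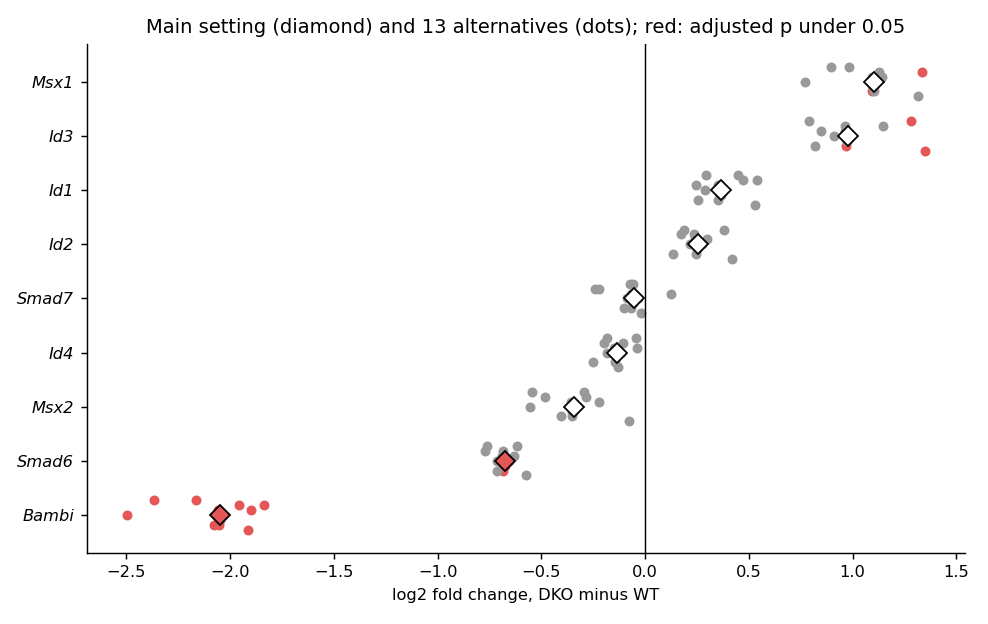
Log2 fold change of each of the 9 genes, DKO minus WT (horizontal axis), in the main setting (diamond) and under 13 other settings or sets of libraries (dots); red marks an adjusted p under 0.05. Bambi is red throughout, between -2.50 and -1.84, Smad6 is red in part, and Id3 and Msx1 are red in 3 and 2 of the dots.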

How the data were processed

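RNA of forelimb bud ectoderm was sequenced after SMART-Seq v4 and Nextera XT preparation, per the labels' protocols, which marks no strand and counts PCR copies as reads. The authors deposited raw counts per gene. FastQC, fastp, HISAT2, Cufflinks, StringTie and DESeq2 with GRCm38 and mm10 are named in the submitters' processing notes; versions and the counting step were not given in the sources used here. The 6 columns name their group, and their numbers match no replicate number of the labels.

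Genes were tested with edgeR 4.0.16 in R 4.3.3 (filterByExpr, TMM, glmQLFit with robust=TRUE and legacy=FALSE, quasi-likelihood F test) over 19126 of 55401 genes, with Benjamini-Hochberg adjustment over all of them. The script was tested on simulated data. Log2 fold changes are DKO minus WT, and the SE is their size divided by the square root of F. Ratios used log2(CPM + 0.5) and an exact permutation test. Positions, exon lengths and overlaps came from GENCODE M21 (GRCm38), which matched 99.53% of identifiers. Alternatives were DESeq2 1.42.0, other scalings, no filter, legacy=TRUE and libraries left out. Leaving out WT 53 with DKO 17 was chosen after seeing the data. The 9 genes, the lists and the tests were chosen with earlier results of these data known. Named were the 9 genes, called pathway genes and a set of main pathway genes and markers, and the 2 nearest genes in pattern for each of the 9, of which 1 is not reported here.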

Additional observations from a re-analysis of the deposited data

How the results depend on the processing

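No paired analysis was possible because the labels link no WT library to a DKO library by litter or embryo. Of the 9 genes, 1 was called lower, Bambi, in place of 2 without the filter on low counts, without WT 32 and DKO 41, and without WT 53 and DKO 17, and the count was 1 with any 1 library left out. The count called higher was 2 with DESeq2 (Msx1 and Id3) and 1 without WT 53 and DKO 17 (Id3), and between 0 and 1 with any 1 library left out: 1 without DKO 41 (Msx1) or WT 53 (Id3). For the other pathway genes, 5 were lower without the filter and 4 without WT 32 and DKO 41, in place of 9, and between 3 and 6 with any 1 library left out: 3 without DKO 40 or WT 56, 4 without WT 32 or WT 53. In place of 4, 7 were higher with DESeq2, 2 with legacy=TRUE, 2 without the filter, 1 without WT 32 and DKO 41, and between 1 and 5 with any 1 library left out: 2 without WT 32 and 1 without WT 56. Calls over all genes changed with the setting too: 863 in the main one, 1738 with DESeq2, 546 with legacy=TRUE and 412 without the filter. Without WT 32 and DKO 41 there were 377. With 1 library left out they ranged from 247 (without WT 56) to 918 (without DKO 41), with 295 without DKO 40 and 313 without WT 32. The cause was not tested. Smad7 turned to a log2 fold change of 0.12 without DKO 40 (edgeR adjusted p = 0.896; lowest value -0.22 without DKO 41), and the other 8 genes kept their direction in all 13 alternatives. All 4 ratios kept theirs in all 10 alternatives. Scaling by RLE or by library totals changed no call among the 9 genes.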
